A study of Mus musculus with 15 samples.

Results

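Ndn and Peg12 are 2 imprinted genes that lie near each other on mouse chromosome 7. They were chosen because their probes were lower in mammary glands of the oldest mice than in those of the youngest, so the difference between week 22 and week 10 is given here as a description with no test. For each gene 1 probe could be named, through the RefSeq identifier the array files give it, NM_010882.2 for Ndn and NM_013788.1 for Peg12. Ndn and Peg12 are 2 of 311 genes that could be named among the 33012 gene probes of the array. Other probes of the 2 genes may exist among those that could not be named.

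Imprinted genes are read from only 1 parental copy. Ndn and Peg12 belong to a cluster in which the paternal copy is active and the maternal copy is silent, under the control of an imprinting centre near Snrpn, and the matching human region is the one lost or silenced in Prader-Willi syndrome. Ndn encodes necdin, a protein of the MAGE family that restrains cell division by binding E2F1 and p53 and is known from neurons and from the precursors of fat cells. Peg12 encodes a protein of the Frat family, whose members bind the kinase GSK3 and can promote Wnt signalling. The arrays measured total RNA and did not separate the parental copies.

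The BALB-neuT line expresses a mutated, activated form of rat HER-2/neu (Erbb2) from a mammary tumour virus promoter, and its females develop mammary carcinomas as they age. Total RNA came from mammary gland whole mounts at ages that, per the labels, stand for successive stages of carcinogenesis, with 1 animal per array. There were 5 mice of 10 weeks, 2 of 15 weeks, 4 of 19 weeks and 4 of 22 weeks, and the labels name no treatment. Every mouse was BALB-neuT, so ordinary ageing of the gland and carcinogenesis cannot be told apart. A whole mount holds fat, stroma, vessels, epithelium and immune cells together, and fewer cells of a type and less RNA per cell cannot be told apart in it. Labelled RNA was read by chemiluminescence on AB1700 single-colour arrays. Of the gene probes, 46.1% to 53.9% were above background on an array (signal-to-noise of 3 or more), and the median signal was 650.2 to 1626. Levels below are log2 signals after quantile normalization, changes are differences of log2 levels with their standard error (SE), and the number of arrays limits their precision, most of all at week 15.

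The sequences just upstream of the starts of both genes are shown because both were chosen for lower levels in the oldest glands. Each window holds 250 bases, read in the direction of transcription and ending at the base before the annotated start, and capitals mark CG dinucleotides, the sites at which DNA methylation is placed. They are from RefSeq, mouse build GRCm38.p6, at chr7:62348027-62348276 on the plus strand for Ndn and chr7:62464511-62464760 on the minus strand for Peg12.
Ndn: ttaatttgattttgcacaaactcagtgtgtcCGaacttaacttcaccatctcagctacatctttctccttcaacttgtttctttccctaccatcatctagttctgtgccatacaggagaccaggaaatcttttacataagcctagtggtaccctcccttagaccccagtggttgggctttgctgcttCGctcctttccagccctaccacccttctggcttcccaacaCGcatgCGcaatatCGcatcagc
Peg12: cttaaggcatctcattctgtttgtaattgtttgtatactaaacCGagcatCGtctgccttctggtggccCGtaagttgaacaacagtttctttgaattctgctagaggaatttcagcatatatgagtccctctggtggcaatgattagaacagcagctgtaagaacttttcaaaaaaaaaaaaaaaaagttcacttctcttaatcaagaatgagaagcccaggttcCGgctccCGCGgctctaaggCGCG
The Ndn window holds 5 CG dinucleotides, 4 of them in the 125 bases nearest the start, and the Peg12 window holds 8, with 5 in the nearest 125 bases. The median over 32851 such windows is 6, so Ndn lies just below it and Peg12 just above. Windows with fewer CG make up 44.4% of all windows for Ndn and 57.0% for Peg12. On either strand, neither window holds the TATA box TATAAA (in 12.4% of all windows), the GC box GGGCGG (32.7%), the CCAAT box CCAAT (33.8%), the YY1 core CCATNTT (12.4%), the E-box CACGTG (6.02%), the cyclic AMP response element TGACGTCA (1.55%) or the full NRF1 motif (0.782%). The last 8 letters of the NRF1 motif, GCATGCGC, were searched only after the sequences had been seen. They occur once in the Ndn window, beginning 22 bases before the start, and not in the Peg12 window (in 2.26% of all windows). No methylation or factor binding was measured in this series.

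Ndn was measured above background on 15 of 15 arrays. At week 10 its log2 levels were 12.60, 12.48, 13.18, 12.38 and 12.59, with a mean of 12.65 ± 0.31 (SD, n = 5). At week 15 they were 12.35 and 12.98, with a mean of 12.67 ± 0.44 (SD, n = 2). The glands of these 2 ages thus had nearly the same range of Ndn level. At week 19 the levels were 11.76, 12.07, 11.18 and 11.87, with a mean of 11.72 ± 0.38 (SD, n = 4). At week 22 they were 12.02, 12, 10.48 and 10.40, with a mean of 11.23 ± 0.91 (SD, n = 4). The week 22 glands fell into a pair near the week 19 level and a pair more than 1 log2 unit below it, and the spread at this age was the largest of the 4 ages.

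In deposited signal units, before normalization, Ndn stood at 4718 to 8835 at week 10, 2953 to 7431 at week 15, 2787 to 5084 at week 19 and 1583 to 4686 at week 22. Its signal-to-noise ratio on single arrays ranged from 5.73 to 46.0, so even the lowest glands gave a measured level. The mean at week 22 was 37.4% of that at week 10, a log2 change of -1.42 ± 0.36 (SE). All 4 week 22 values lay below all 5 week 10 values, as was so for 5.24% of the 20867 probes kept for testing. Across all of those probes, 12% passed in either direction at week 22 against week 10 (limma, adjusted p of 0.05), and nothing is read from this for a gene picked on the same contrast.

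The Peg12 probe was above background on 12 of 15 arrays. At week 10 its log2 levels were 10.97, 10.97, 11.41, 10.19 and 10.69, with a mean of 10.85 ± 0.45 (SD, n = 5). At week 15 they were 11.10 and 11.14, with a mean of 11.12 ± 0.03 (SD, n = 2). All 7 glands of these 2 ages gave a Peg12 signal above background. At week 19 the levels were 9.40, 10.68, 10.41 and 9.96, with a mean of 10.11 ± 0.56 (SD, n = 4), and replicate 1 was not well above background. At week 22 they were 8.96, 10.11, 9.77 and 9.88, with a mean of 9.68 ± 0.50 (SD, n = 4), and replicates 1 and 3 were not well above background. The Peg12 signal was thus measured in 3 of 4 glands at week 19 and in 2 of 4 at week 22.

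Deposited Peg12 signals were 1103 to 2578 at week 10, 1271 to 2024 at week 15, 556.6 to 1968 at week 19 and 422.9 to 1480 at week 22. The signal-to-noise ratio ran from 1.96 to 7.32, and at week 22 replicate 2 it was 3 to the rounding of the file, so the Peg12 level of a single gland carries more measurement error than that of Ndn. Week 22 stood at 44.6% of week 10, a log2 change of -1.17 ± 0.31 (SE). After normalization the 4 later values lay below the 5 earlier ones, as was so for 5.24% of all probes kept for testing. The nearest values were 10.11 (week 22 replicate 2) and 10.19 (week 10 replicate 4), and the deposited signals of the 2 ages overlapped. The 3 arrays without a measured Peg12 level were all of the later ages, so the size of the Peg12 change rests in part on values that are not well above background.

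**Figure D1:**
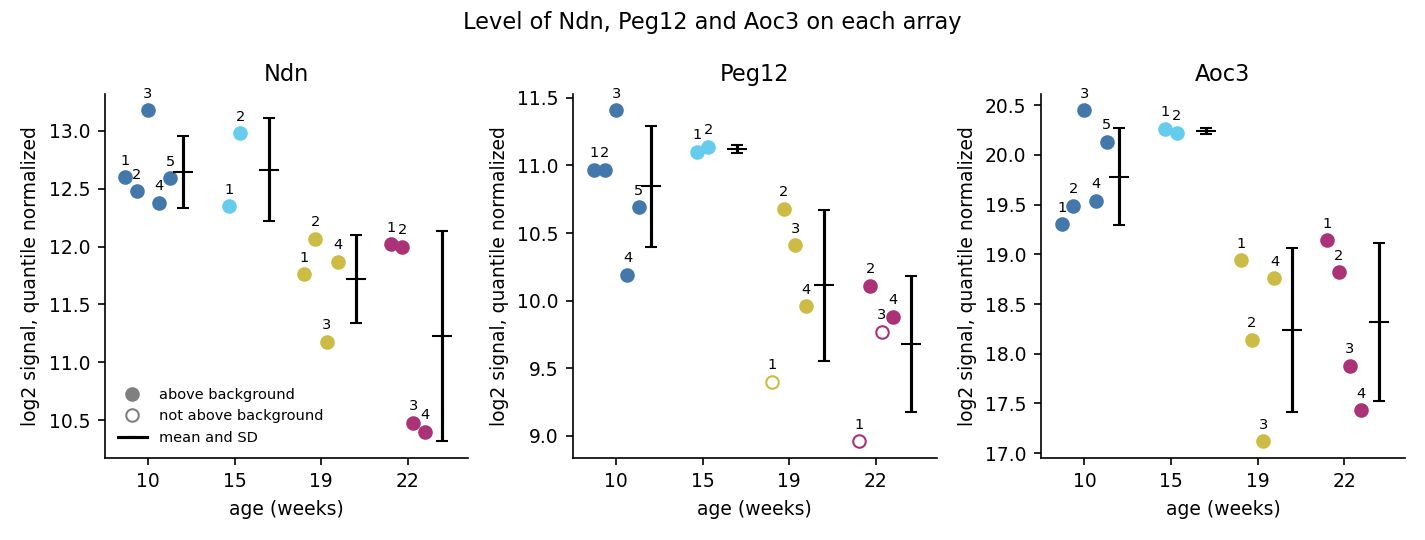
Each point is 1 array, plotted as log2 normalized signal against age in weeks for Ndn (left), Peg12 (middle) and Aoc3 (right), with replicate numbers above the points, open points for arrays where the probe was not above background, and bars for the mean and SD of each age. Ndn is lowest in week 22 replicates 3 and 4 (10.48 and 10.40), while Peg12 is lowest in week 22 replicate 1 (8.96).

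Levels at the ages between the extremes are given next as a description. The week 10 and week 22 arrays entered the choice of the genes, so differences of Ndn and Peg12 that use them carry no test. At week 15 against week 10, the log2 change was 0.02 ± 0.45 for Ndn and 0.27 ± 0.39 for Peg12 (SE), and the ranges of the 2 ages overlapped for both genes. In that comparison, with only 2 arrays at week 15, 0.0335% of the probes tested passed the threshold, and 11.6% had an unadjusted p under 0.05 (limma). At week 19 against week 10, Ndn was at 52.6% of the earlier mean, a log2 change of -0.93 ± 0.36, with no overlap between the ages, which was so in this direction for 7.7% of probes. Peg12 was at 60.1%, a log2 change of -0.73 ± 0.31, and the ranges overlapped because week 10 replicate 4 (10.19) lay below week 19 replicates 2 and 3 (10.68 and 10.41). At that comparison 12.5% of all probes passed in either direction. From week 19 onward the changes were each under 2 SE, at -0.49 ± 0.38 for Ndn and -0.43 ± 0.33 for Peg12 (week 22 minus week 19).

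Week 19 against week 15 is the comparison in which the genes were tested, since its means share no array with the contrast that chose them. The spread was estimated over all 4 ages, week 10 and week 22 included. Neither passed. Ndn stood at 51.9% of its week 15 level, a log2 change of -0.95 ± 0.46 (SE; 95% confidence interval -1.95 to 0.05; limma adjusted p = 0.178 over all kept probes). Peg12 stood at 49.7%, a log2 change of -1.01 ± 0.40 (SE; 95% confidence interval -1.87 to -0.15; unadjusted p = 0.0247 and limma adjusted p = 0.103). For both genes all 4 later values lay below both earlier ones, which with only 2 arrays at week 15 was so for 23% of all probes. In the same comparison 13.6% of probes passed in either direction and 6.92% passed as lower, and the median change over all probes was -0.06. Of the 2 members 0 passed the threshold, and 1 had an unadjusted p under 0.05, as did 32% of all probes. With week 22 replicates 3 and 4 left out, and normalization, filter and fit repeated, the Ndn change was -0.94 ± 0.30 (limma adjusted p = 0.0619). Without normalization the changes were -0.40 for Ndn and -0.46 for Peg12, while the median over all probes was 0.32.

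After normalization, all 4 week 22 animals were lower than every week 10 animal for both genes, in the contrast that chose the genes. The deposited Peg12 signals of these ages overlapped. The lowest animals were not the same ones for the 2 genes. Without week 22 replicates 3 and 4 the log2 change of Ndn against week 10 was -0.63 ± 0.29, and that of Peg12 was -1.30 ± 0.41 (SE). Without week 22 replicate 1 it was -1.68 ± 0.36 for Ndn and -0.93 ± 0.30 for Peg12. Week 22 replicates 3 and 4 therefore carry more of the Ndn difference than the other pair. Replicate 1, where Peg12 was not well above background, carries part of the Peg12 difference.

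Arrays were scanned on 2 days and came in 4 runs of serial numbers, called array series here, and both go in part with age and with these animals. On scan day 1 were 4 of 5 arrays from week 10 and only replicate 1 of week 22. Within scan day 1 the week 22 change against week 10 was -0.64 ± 0.43 for Ndn and -1.93 ± 0.52 for Peg12. Within scan day 2, with 3 week 22 arrays against 1 of week 10, it was -1.62 ± 0.70 for Ndn and -0.77 ± 0.33 for Peg12. The order of the 2 genes in size of change was thus opposite on the 2 days.

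Within array series 3, with 1 week 22 array against 2 of week 10, the change was -0.48 ± 0.27 for Ndn and -0.32 ± 0.44 for Peg12. Within array series 4, with 2 week 22 arrays against 3 of week 10, it was -2.31 ± 0.31 for Ndn and -1.29 ± 0.27 for Peg12. Both low Ndn arrays of week 22 belong to array series 4. With scan day as a block the change was -1.31 ± 0.41 for Ndn and -1.42 ± 0.32 for Peg12, and blocking on array series gave -1.47 ± 0.39 for Ndn and -1.04 ± 0.27 for Peg12. Every one of these values was below 0, but the size for either gene differed several-fold between batches.

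**Figure D2:**
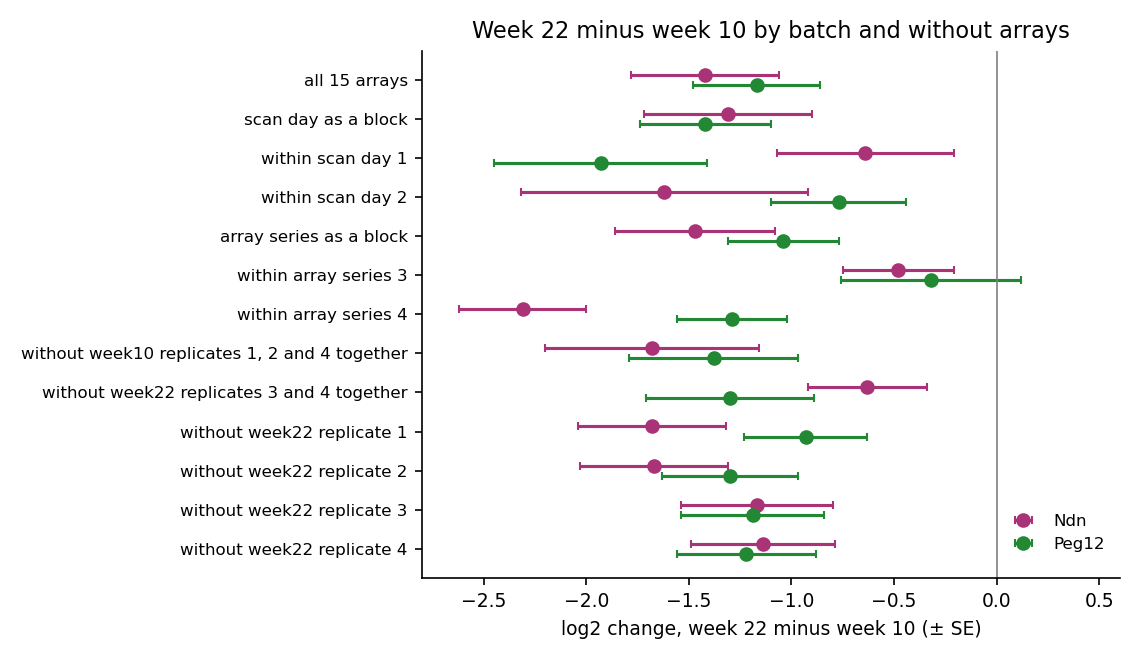
Points are the log2 change of week 22 against week 10 (x axis, week 22 minus week 10) with bars for its SE, for Ndn and Peg12, in all 15 arrays, with batches as blocks, within single batches and without named arrays. All points lie left of 0, Ndn ranging from -2.31 within array series 4 to -0.48 within array series 3, and Peg12 from -1.93 within scan day 1 to -0.32 within array series 3.

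Deviations of each array from the mean of its age show whether the 2 genes vary together among animals of the same age, which the choice of genes did not use. No such relation was found. Over the 15 arrays the correlation between Ndn and Peg12 was r = 0.00 (Spearman rho = 0.03; exact permutation within ages, two-sided p = 0.994, adjusted over 3 relations 0.994; p for rho = 0.949). Week 22 replicate 1 was the clearest case, at 0.80 above its age mean for Ndn and -0.72 from it for Peg12. Its Peg12 was not well above background, at a signal-to-noise of 1.96. Without that array alone r was 0.34 (exact permutation p = 0.151), and blocking on array series gave r = 0.30. Without the 2 arrays farthest from the median Ndn deviation, week 22 replicates 1 and 2, r was 0.34 (permutation p = 0.366), and without week 22 replicates 3 and 4 it was 0.28. Within scan day 2, over 6 arrays of weeks 19 and 22, it was 0.39 (exact permutation p = 0.389), and scan day 1 held too few arrays of any age but week 10.

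Aoc3 was the only adipocyte marker, of a list of 20, that could be named on the array. The list was drawn up with earlier results of these data known. It encodes the amine oxidase also known as VAP-1, which is abundant in fat cells and is present in vessel walls as well. Its log2 level was 19.78 ± 0.49 at week 10 (SD, n = 5), 20.24 ± 0.03 at week 15 (SD, n = 2), 18.24 ± 0.82 at week 19 (SD, n = 4) and 18.32 ± 0.80 at week 22 (SD, n = 4). Aoc3 fell at week 22 against week 10, by 1.46 on the log2 scale (SE 0.42, limma adjusted p = 0.0377), and at week 19 against week 15, by 2.00 (SE 0.54, limma adjusted p = 0.0313). Its direction was the same under every alternative tried, but the call was lost under 16 of 25 alternatives for week 22 against week 10 and under 11 of 21 for week 19 against week 15.

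Among animals of the same age, Ndn and Aoc3 deviated together. The correlation was r = 0.78 (Spearman rho = 0.75; exact permutation within ages, two-sided p = 0.00896 and adjusted p = 0.0269 over 3 relations; for rho p = 0.014 and adjusted p = 0.0421). Week 22 gave the widest spread for Ndn, while for Aoc3 the SD was 0.82 at week 19 and 0.80 at week 22. Week 22 replicates 1 and 2 lay above their age mean for both genes, by 0.80 and 0.78 for Ndn and 0.82 and 0.50 for Aoc3. Replicates 3 and 4 lay at -0.74 and -0.83 for Ndn and at -0.44 and -0.89 for Aoc3. Without week 22 replicates 1 and 2, r was 0.65 (rho = 0.55; permutation p = 0.0549), and without week 22 replicates 3 and 4 it was also 0.65 (permutation p = 0.0593). The call was lost in 7 of 15 omissions of a single array, with r between 0.72 and 0.83 over all 15. Within scan day 2, r was 0.84 over 6 arrays (exact permutation p = 0.0833), with 36 permutations available. Blocking on scan day gave r = 0.78 (adjusted permutation p = 0.0694), and blocking on array series gave r = 0.80 with only 48 permutations. With 48 or 36 permutations this relation could not have passed on its own. Correlations within ages were run for the 3 relations only, so how common such an r is among other genes was not tested.

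For Peg12 and Aoc3 no relation passed the test. There r was -0.33 (Spearman rho = -0.39; exact permutation p = 0.331, adjusted p = 0.496; p for rho = 0.23), and 0.14 without the 2 arrays farthest from the median Peg12 deviation (permutation p = 0.672). Those 2, replicate 1 of week 19 and replicate 1 of week 22, were not well above background for Peg12. Within scan day 2 it was -0.12 over 6 arrays (exact permutation p = 0.833). Whether the correlation with Aoc3 differs between Ndn and Peg12 was not tested.

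**Figure D3:**
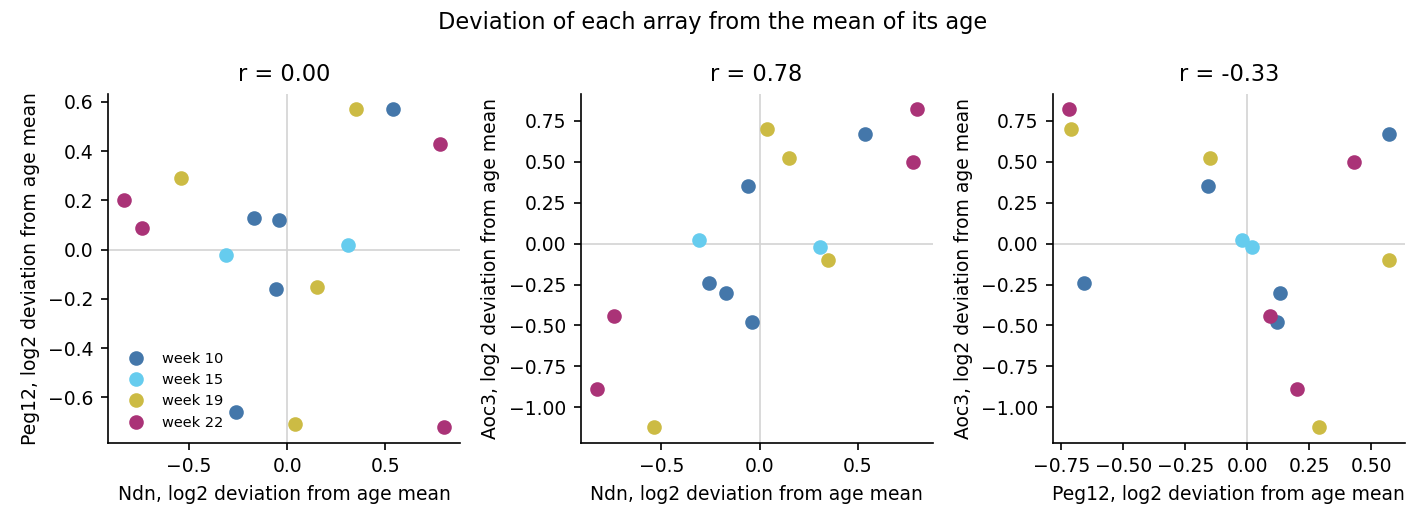
Each point is 1 array, plotted by its log2 deviation from the mean of its age for Ndn and Peg12 (left), Ndn and Aoc3 (middle) and Peg12 and Aoc3 (right), coloured by age in weeks. The middle panel alone shows points along a rising line (r = 0.78), while the left panel has r = 0.00 and the right panel r = -0.33.

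Other tissue markers also differed between the ages in which Ndn and Peg12 were low and those in which they were high. The marker lists were drawn up with earlier results of these data known, so the counts of genes that passed are a description only. Of 16 luminal and milk genes 4 were measured, the milk genes Csn1s2a, Csn1s2b, Csn2 and Wap. The mean of their log2 levels lay between 13.12 and 15.39 over the week 22 arrays, against 9.28 to 10.39 at week 10. Among the 5 youngest glands, 4 gave a measured Csn1s2a level, but only 1 did so for each of the other milk genes. The week 10 mean thus rests largely on values not well above background, and a rise of luminal epithelium was not tested. All 4 milk genes passed as higher, as did 7.78% of all probes. Of a list of 14 leukocyte and chemokine genes 5 were measured, Lst1, Bcl2a1b, Tnfsf13 and the chemokines Ccl19 and Ccl21a. Their mean level was 14.26 to 15.35 at week 22, against 12.60 to 13.53 at week 10, and 4 of them, all but Ccl19, passed as higher. Ccl19 (2.25 ± 0.69, SE) and Ccl21a (2.33 ± 0.69) had the largest log2 changes of the 5, so this mean is not a level of leukocytes alone. Within week 22, Ccl21a was 14.25 and 14.10 in replicates 1 and 2, against 16.89 and 17.06 in replicates 3 and 4, the glands lowest in Ndn. Ccl19 was likewise higher in replicates 3 and 4, while Lst1 was lower there, and Bcl2a1b and Tnfsf13 overlapped between these pairs. Of 20 adipocyte genes Aoc3 alone was measured, at 17.43 to 19.14 at week 22, against 19.30 to 20.45 at week 10, and it passed as lower, as did 4.18% of all probes. Red blood cell (Hba-a1, 1 of 3), basal epithelial (Lgals7, 1 of 6) and hair and skin (Krt25 and Krt27, 2 of 8) genes gave no call at week 22 against week 10.

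Cell types in which necdin is best known could hardly be followed. None of 15 preadipocyte and fibroblast markers and none of 5 endothelial markers could be named on the array. Of 11 nerve and neuron markers only Snap25 could be named, and it was above background on 2 of the 5 week 10 arrays and on no later array. The hair keratin genes Krt25 and Krt27 were high on some week 10 arrays, where the mean level of the pair ran from 7.28 to 18.81. Without week 10 replicates 1, 2 and 4, which carry that signal, the week 22 change was -1.68 ± 0.52 for Ndn and -1.38 ± 0.41 for Peg12. The part of the tissue's make-up in the lower Ndn and Peg12 levels was not tested.

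The neighbours of Ndn and Peg12 give a comparison within the imprinted cluster. Of a textbook list of 93 imprinted genes, 4 others could be named on the array, Magel2, Mkrn3, Ube3a and Gnas. In the order of protein-coding genes along chromosome 7, Ndn, Magel2, Mkrn3 and Peg12 follow each other directly, and Ube3a lies on the Ndn side with 3 genes between. Of these 4, Magel2 was above background on 1 of 15 arrays and was left out of the tests. None of the 3 that were kept passed at week 22 against week 10 (limma, 12% of all probes), and 1 had an unadjusted p under 0.05 (28.1% of all probes). Their median change there was 0.07, against -0.01 over all probes. None passed at week 19 against week 10 either (12.5% of all probes), and none had an unadjusted p under 0.05 (28.2% of all probes), with a median change of -0.35, against -0.02 over all probes. At week 19 against week 15, where Ndn and Peg12 were tested, none of the 3 passed (13.6% of all probes) and 1 had an unadjusted p under 0.05 (32% of all probes), with a median change of -0.41, against -0.06 over all probes.

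Mkrn3, a paternally expressed gene for a RING finger protein that restrains the onset of puberty, lies between Ndn and Peg12. Its log2 levels were 11.88, 11.27, 11.16 and 11.08 at week 22, against 10.54, 11.25, 11.52, 10.98 and 11.58 at week 10. The ranges overlapped, and the log2 change was 0.17 ± 0.23 (SE; 95% confidence interval -0.32 to 0.67; limma adjusted p = 0.67). Its week 19 change against week 10, -0.39 ± 0.23, did not pass either (limma adjusted p = 0.296). At week 19 against week 15 Mkrn3 had a log2 change of -0.80 ± 0.30 (SE; 95% confidence interval -1.45 to -0.16; unadjusted p = 0.0184 and limma adjusted p = 0.0865). Its levels, 10.78 ± 0.20 at week 19 (SD, n = 4) and 11.58 ± 0.15 at week 15 (SD, n = 2), did not overlap, as was so in this direction for 23% of all probes. Its p in that comparison was smaller than that of Ndn or Peg12. The gland with the least Peg12 at week 22, replicate 1, had the most Mkrn3, but its Peg12 was not well above background.

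Ube3a, which encodes a ubiquitin ligase and is imprinted in neurons but read from both copies in most other cells, had log2 levels of 15.68, 15.84, 15.39 and 15.76 at week 22, against 15.33, 15.78, 15.71, 15.80 and 15.37 at week 10. These were nearly the same range, with a log2 change of 0.07 ± 0.16 (SE; 95% confidence interval -0.28 to 0.43; limma adjusted p = 0.825). At week 19 against week 15 its change was -0.41 ± 0.21 (95% confidence interval -0.86 to 0.05; limma adjusted p = 0.207). The 2 ages did not overlap, as was so in this direction for 23% of all probes. Gnas, a complex imprinted locus on another chromosome that encodes the stimulatory G protein subunit, had 13.80 ± 0.20 at week 22 (SD, n = 4) and 14.44 ± 0.39 at week 10 (SD, n = 5). Its log2 change of -0.64 ± 0.26 did not pass (SE; 95% confidence interval -1.19 to -0.09; limma adjusted p = 0.121). At week 19 against week 15 the Gnas change was 0.14 ± 0.33 (95% confidence interval -0.57 to 0.85; limma adjusted p = 0.803). Its sign turned when blocked on array series, within scan day 2, within array series 4 and without week 15 replicate 1. Whether any of these changes differs from that of Ndn or Peg12 was not tested.

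**Figure D4:**
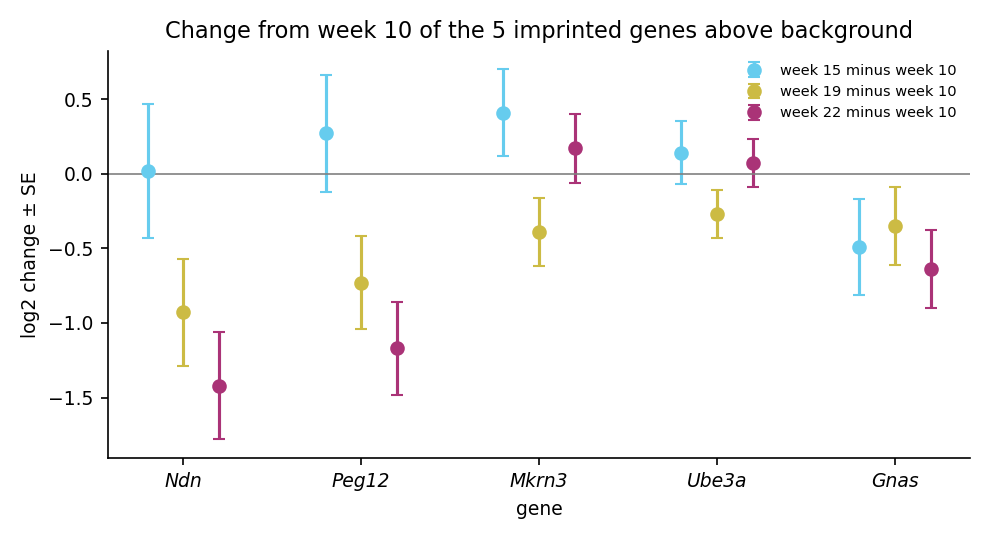
Points are log2 changes against week 10 (y axis) with bars for the SE at week 15, week 19 and week 22, for the 5 imprinted genes that were above background often enough to be tested. At week 22 Ndn (-1.42) and Peg12 (-1.17) lie below 0, Mkrn3 (0.17) and Ube3a (0.07) lie near 0, and Gnas (-0.64) lies between them.

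Among relatives by protein family that could be named on the array, only Frat2 was measured. It is a Frat gene like Peg12 and is not known to be imprinted. Frat2 stood at 10.51 ± 0.74 at week 22 (SD, n = 4) and at 11.18 ± 0.88 at week 10 (SD, n = 5), was above background on 8 of 15 arrays and did not pass (log2 change -0.67 ± 0.45, SE; limma adjusted p = 0.361). Its 95% confidence interval was -1.65 to 0.31. Of 35 Wnt and GSK3 pathway genes and 11 necdin partner genes, 0 could be named on the array, so the pathways in which the 2 proteins act were not analysed here.

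The genes most like Ndn across all 15 arrays, among 206 other named genes, were Lgals1 (r = 0.90), Aoc3 (0.88), H2bc13 (0.87), Sowahc (0.84) and Nupr1l (0.83). Lgals1 encodes galectin-1, a secreted lectin of stromal and immune cells. The least alike were Chrnb1 (-0.84), Tnk1 (-0.82) and Tceal9 (-0.80). The genes most like Peg12 were Dhrs7b (0.75), Mapk7 (0.74), Tspyl2 (0.73), Fgf21 (0.71) and Sox11 (0.71), of which Fgf21 was above background on 4 arrays and Sox11 on 8. Within scan day 2 the coefficient of Peg12 with Dhrs7b was -0.37 over 6 arrays. The least alike were Gbx1 (-0.80), Csprs (-0.77) and Lst1 (-0.74), the last a leukocyte gene. No gene is in both lists.

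Ndn and Peg12 themselves had r = 0.62 over the 15 arrays, which placed Peg12 at rank 23 for Ndn and Ndn at rank 8 for Peg12, and since both were chosen for the same difference between ages this is a description only. Within ages it was 0.00, as given above. Aoc3 ranked second for Ndn but 26 for Peg12 (r = 0.51). Among the imprinted neighbours, Mkrn3 had r = 0.27 with Ndn and 0.01 with Peg12, and Ube3a had 0.17 with Ndn and 0.07 with Peg12. These coefficients share the arrays, the ages and the batches, and carry no p-value.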

How the data were processed

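Per the file headers and labels, total RNA was labelled with digoxigenin and read on AB1700 arrays. The deposited files hold 1 signal intensity per probe with its SD, signal-to-noise score and flag, and the steps the authors took before deposit, background treatment included, are not stated there. Where signal-to-noise is under 1 (31.6% to 39.0% of probes on an array) the deposited signal intensity equals its SD. The authors' deposited log2 table ranked probes as the scanner values did (Spearman 1.0, every column median 10.03) and was used as an alternative.

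Control spots (303) were left out, and signals were taken to log2 and quantile normalized. A probe was above background at a signal-to-noise score of at least 3 and a flag under 5000, and probes that met this on 50% or more of the arrays of any 1 age were kept, 20867 in all. One limma fit (3.58.1, R 4.3.3, two-sided) covered the 4 ages, with Benjamini-Hochberg adjustment over all kept probes and a threshold of 0.05. It was tested on simulated data. Correlations used exact permutations within ages (138240). Identifiers were matched, without versions, to a mouse RefSeq table (GRCm38.p6). This gave names to 317 probes, for 311 genes, and 207 genes were kept. The genome build of the array's design was not found in the files or labels.

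Named genes were Ndn, Peg12, all measured genes of the imprinted and Frat lists, Aoc3 and Csn2, and the 5 most and 3 least like each member. Genes measured for a marker list were also named where the list had 2 or fewer. Those of the luminal and milk list and of the leukocyte and chemokine list were named too. The members and lists were chosen with earlier results of these data known. Replicates are separate animals per the series design. Their numbers were given in accession order and do not pair animals across ages. Alternatives covered normalization, filters, batches, weights, an offset of 50 and omitted arrays.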

Additional observations from a re-analysis of the deposited data

Results flagged for a closer look

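Ndn in week 10 replicate 3 stood at 13.18, above the other 4 arrays of that age, which lay between 12.38 and 12.60. The gap to the nearest was 0.73 of the whole range, past Dixon's 95% critical value for 5 samples. Chance alone does this in about 1 in 20 groups, and 27 groups of arrays were examined. The same animal also had the highest Peg12 (11.41) and the highest Aoc3 (20.45) of its age.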

How the results depend on the processing

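Both members were lower at week 22 than at week 10 under 25 of 25 alternatives each, a direction that their choice fixes. The size moved by more than the spread within an age for Ndn within scan day 1 (-0.64), array series 3 (-0.48) and array series 4 (-2.31) and without week 22 replicates 3 and 4 together (-0.63), and for Peg12 within scan day 1 (-1.93) and array series 3 (-0.32). At week 19 against week 10 it moved for Ndn within array series 4 (-1.58) and for Peg12 within scan day 1 (-1.48) and array series 3 (-0.12). The causes were not tested. Leaving out 1 array at a time gave -1.68 to -1.14 for Ndn and -1.33 to -0.93 for Peg12 at week 22 against week 10, -1.05 to -0.75 and -0.92 to -0.50 at week 19 against week 10, -0.30 to 0.33 and 0.11 to 0.42 at week 15 against week 10, and -1.26 to -0.63 and -1.19 to -0.77 at week 19 against week 15. In that last comparison the changes were -0.40 for Ndn and -0.46 for Peg12 without normalization, -1.80 for Ndn within array series 4, -0.59 for Ndn and -1.70 for Peg12 within scan day 1, and neither passed under any of 21 alternatives (adjusted p of 0.0619 to 0.669 for Ndn and 0.0694 to 0.676 for Peg12), while the number of all probes called moved from 2832 to 904 without normalization, 1522 with no filter, 900 when blocked on array series, 42 within scan day 1, 703 within scan day 2, 0 within array series 4, 1118 with array weights, and 535 without week 15 replicate 1, 1342 without week 19 replicate 2 and 1013 without week 19 replicate 3. The count of other imprinted genes called stayed at 0 under every alternative tried.

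The Ndn and Aoc3 correlation lost its call without normalization (0.66, adjusted p = 0.0502), when blocked on scan day (0.78, 0.0694) or array series (0.80, 0.25) and within scan day 2 (0.84, 0.25), where 48 and 36 permutations allowed no pass for a lone relation, and without week 10 replicates 1, 2 and 4 (0.79, 0.0938) and without week 22 replicates 3 and 4 (0.65, 0.178). Without 1 array it was 0.72 to 0.83, and the call was lost in 7 of 15 omissions, those of week 10 replicate 3 (adjusted permutation p = 0.129), week 19 replicates 3 (0.166) and 4 (0.054), and week 22 replicates 1 (0.0521), 2 (0.0521), 3 (0.0556) and 4 (0.0556). For Ndn and Peg12 the range was -0.19 to 0.34, and for Peg12 and Aoc3 -0.55 to -0.14, the last turning to 0.21 when blocked on array series. The Aoc3 call at week 22 against week 10 was lost in 16 of 25 alternatives, and that at week 19 against week 15 in 11 of 21. At week 22 against week 10, Mkrn3 turned to -0.40 within scan day 2, -0.01 within array series 3 and -0.20 without week 10 replicates 1, 2 and 4, Ube3a to -0.03 within array series 4 and -0.01 with array weights, and Frat2 to 0.33 within scan day 2 and 0.03 within array series 3 (at week 19, 0.47 and 0.25). The same alternatives were added, after the data were seen, for the imprinted neighbours at week 19 against week 15. Gnas (0.14) turned to -0.09 when blocked on array series, -0.49 within scan day 2 and -0.56 within array series 4, and ran from -0.49 to 0.77 without 1 array, while Mkrn3 (adjusted p of 0.0625 to 0.776) and Ube3a (0.128 to 0.821) stayed below 0 and passed under none. No paired analysis was possible because replicates were numbered in accession order, which pairs no animals.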
